A study of Mus musculus with 2 samples.

Results

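This account concerns 9 genes that make, cut, bind or organise hyaluronan, or that coat the cell surface with lubricant, as measured in mouse liver mesothelial cells. They were taken by gene symbol from the 18193 genes that the platform annotation ties to probe sets: the synthases Has1, Has2 and Has3, the hyaluronidases Hyal1 and Hyal2, the receptor Cd44, the matrix proteins Tnfaip6 and Vcan, and the lubricant Prg4. In all, 22 probe sets belong to them, of which 19 carry the symbol of that gene alone. The cells came from collagenase-digested livers of C57BL/6 mice and were isolated on a cell sorter. The adult group was 1 array of cells from animals aged 8 weeks, sorted with an antibody to Mesothelin, and the embryonic group was 1 array of cells from embryonic day 12.5 (E12.5), sorted with an antibody to PCLP1. The labels give no genotype or treatment that would set the groups apart further, and do not say how many animals were pooled. Stage, sorting antibody and array therefore cannot be told apart, and with no replicates the differences below carry no test.

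Hyaluronan is a long unbranched polymer of glucuronic acid and N-acetylglucosamine. Has enzymes spin it out through the plasma membrane from UDP-sugars, hyaluronidases cut it, and receptors and link-module proteins tether or cross-link it. Mesothelium, the sheet that covers organs in the body cavities, is known for a hyaluronan-rich surface coat that lets organs slide past each other. Embryonic mesenchyme is known for a looser matrix of hyaluronan and versican.

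The adult array gave Prg4, Has1 and Cd44 higher signals, the E12.5 array gave Tnfaip6, Vcan and Has2 higher signals, and Hyal2 lay just inside 2-fold. Prg4 (lubricin) was at least 28.2-fold and Has1 at least 10.8-fold higher in adult, while Tnfaip6 was at least 16.8-fold higher at E12.5. In bulk samples such as these, a smaller number of cells of a type and less RNA per cell cannot be told apart. Has3 had no present call on either array, and Hyal1 had none on the probe set that the deposited table names for it alone. A gene was counted as detected where at least 1 probe set had a present call, and its brightest such probe set stood for it. By this filter 7 of the 9 genes were detected, of which 2 (Has1 and Prg4) in adult alone, 2 (Has2 and Tnfaip6) at E12.5 alone and 3 (Hyal2, Cd44 and Vcan) on both arrays.

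Of the 7, 3 passed 2-fold towards adult, against a background of 16.9% of the 12801 genes detected on at least 1 array. Towards E12.5 it was again 3, against a background of 29.1%. Genes called present on 1 array alone pass such a filter through the array where they are bright, so the counts describe the genes and support nothing about the group. Among the 3 genes detected on both arrays, 1 passed 2-fold towards adult and 1 towards E12.5, where the backgrounds were 13.2% and 27.1%. The median log2 difference, adult minus E12.5, was -0.98 over the 7 genes and -0.34 over all detected genes, where a gene detected on 1 array alone entered at its bound. The median of the members turned to 0.46 with the array median in place of the detection call, and was -0.31 without a detection filter. The plot of every probe set shows these values gene by gene.

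**Figure D1:**
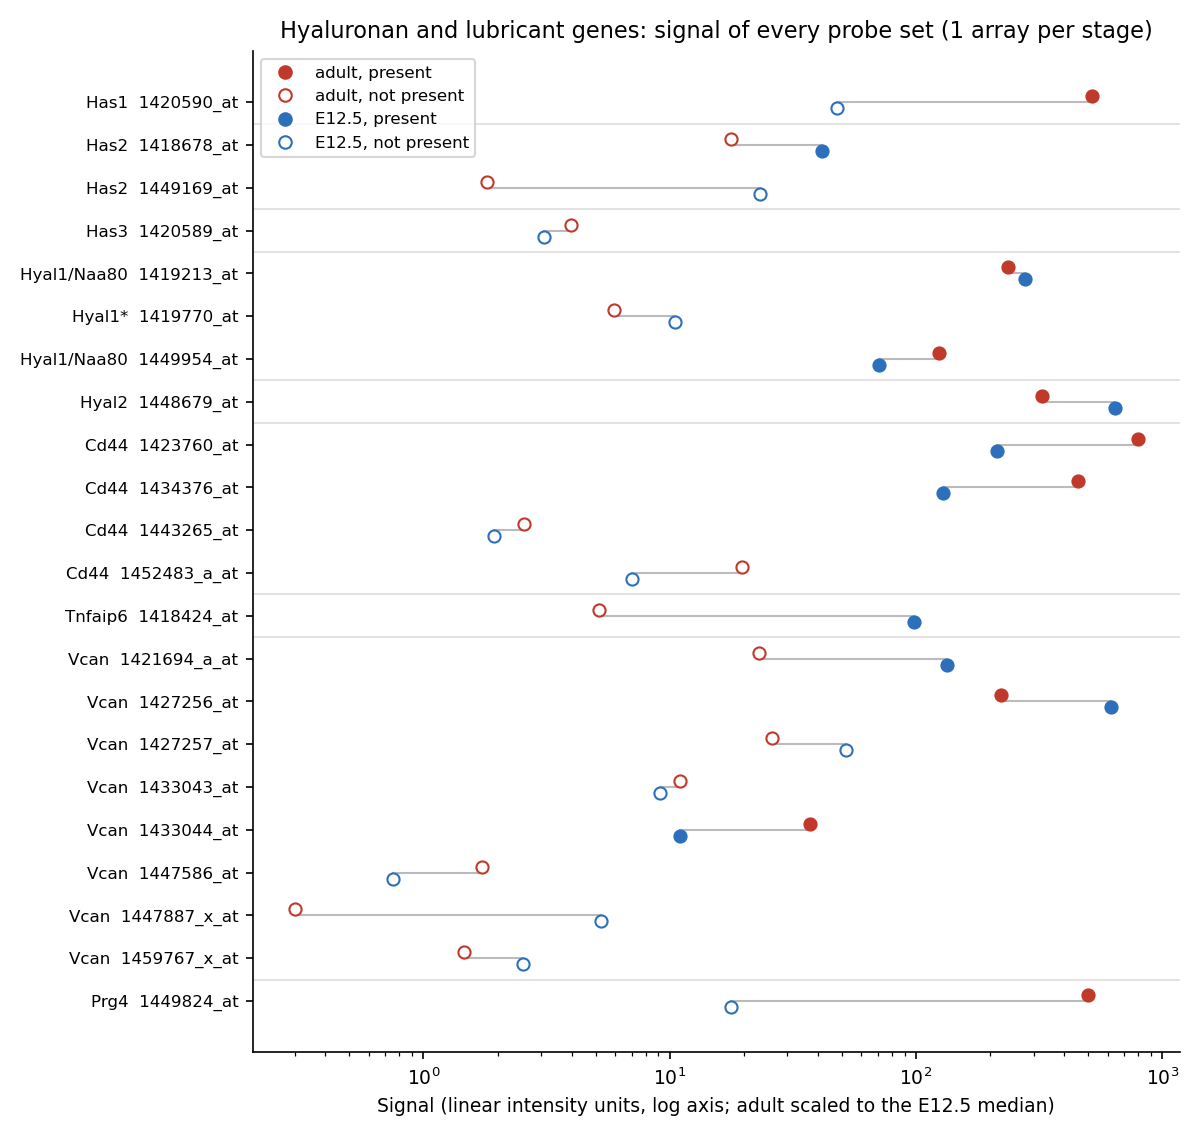
Signal of each of the 22 probe sets on the adult array (red) and the E12.5 array (blue), on a log axis in linear intensity units, with adult signals scaled to the E12.5 median. Filled points had a present call, open points an absent call; the asterisk marks a probe set named Hyal1 by the deposited table only. Has1, Cd44 and Prg4 sit to the right on the adult array, Tnfaip6 and the brighter Vcan probe sets on the E12.5 array.

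The 4 genes on which this contrast turns and that have a RefSeq promoter window are shown with the start region of their transcripts, to set the pair higher in adult (Has1, Cd44) beside the pair higher at E12.5 (Tnfaip6, Vcan). Each window runs from 250 bases before to 50 bases after the start in RefSeq (GRCm38.p6), 5′ to 3′ along the strand of the gene. Windows were found for 6 of the 9 genes. Has1 lies at chr17:17855139-17855438 and Cd44 at chr2:102901616-102901915, both on the minus strand. Tnfaip6 lies at chr2:52037863-52038162 on the plus strand and Vcan at chr13:89742463-89742762 on the minus strand. Capitals mark matches, on either strand, to any of 8 motifs.
Has1: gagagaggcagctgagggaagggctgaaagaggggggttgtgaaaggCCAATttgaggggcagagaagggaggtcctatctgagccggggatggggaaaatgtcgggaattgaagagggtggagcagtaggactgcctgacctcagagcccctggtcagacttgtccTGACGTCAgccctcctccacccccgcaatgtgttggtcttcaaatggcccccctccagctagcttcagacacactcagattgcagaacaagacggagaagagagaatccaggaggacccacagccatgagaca
Cd44: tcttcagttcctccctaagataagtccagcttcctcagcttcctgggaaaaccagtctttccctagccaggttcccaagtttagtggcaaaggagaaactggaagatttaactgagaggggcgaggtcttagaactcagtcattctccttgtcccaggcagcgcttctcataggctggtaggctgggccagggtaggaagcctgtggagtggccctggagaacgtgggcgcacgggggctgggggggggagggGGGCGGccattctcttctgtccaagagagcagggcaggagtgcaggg
Tnfaip6: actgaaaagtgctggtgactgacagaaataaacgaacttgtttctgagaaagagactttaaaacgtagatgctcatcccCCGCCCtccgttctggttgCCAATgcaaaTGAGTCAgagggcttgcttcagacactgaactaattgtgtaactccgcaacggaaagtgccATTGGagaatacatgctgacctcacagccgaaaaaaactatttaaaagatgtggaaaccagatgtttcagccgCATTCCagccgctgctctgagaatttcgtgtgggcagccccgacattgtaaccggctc
Vcan: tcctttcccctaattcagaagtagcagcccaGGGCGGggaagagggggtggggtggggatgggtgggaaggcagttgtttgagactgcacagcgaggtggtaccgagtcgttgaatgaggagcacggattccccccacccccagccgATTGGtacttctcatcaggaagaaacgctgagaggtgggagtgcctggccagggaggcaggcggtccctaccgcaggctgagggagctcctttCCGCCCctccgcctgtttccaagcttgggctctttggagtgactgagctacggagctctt

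The motifs searched were the TATA box TATAAA, the CCAAT box CCAAT, the GC box GGGCGG, the cAMP response element TGACGTCA, the AP-1 element TGAGTCA, a kappaB element, an interferon response element and a TEAD element GGAATG. In these 4 windows no 2 matches overlapped. The Has1 window held a cAMP response element 83 bases before the start, a motif found in 1.79% of 32851 RefSeq windows of the same length, and a CCAAT box (37.4% of windows). The Cd44 window held a GC box (35.7% of windows) just after the start and no other match. The Tnfaip6 window held an AP-1 element 142 bases before the start (5.2% of windows), CCAAT boxes in both orientations, a GC box and, near the start, a TEAD element (14.7% of windows). The Vcan window held GC boxes 219 and 10 bases before the start and a CCAAT box. The letters of the TATA box (13.6% of windows), the kappaB element (1.63%) and the interferon element (3.44%) were in none of these 4 windows. The Tnfaip6 window had 47.0% G and C and the others between 57.0% and 61.0%, against a median of 52.7% over all windows. These matches describe the sequence and were not tied to the expression values by any test.

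Has1, the first of the membrane enzymes that polymerise hyaluronan, had a signal of 518 in adult with a present call, against 47.8 at E12.5 with an absent call. It was the synthase detected on the adult array, and its fold of at least 10.8 is a lower bound because the E12.5 signal was not called present. Before scaling, the adult signal was 352. Has2, the synthase that mouse embryos need for heart cushion formation, had 17.7 in adult with an absent call, against 41.7 at E12.5 with a present call. That is at least 2.35-fold higher at E12.5, at a signal below the median of that array. Its other probe set was absent on both arrays, at 1.81 in adult and 23.3 at E12.5. The call past 2-fold for Has2 was lost with the trimmed means of the arrays set equal (1.90-fold), with the detected genes centred (1.81-fold) and with 16 added to each signal (1.71-fold). Has3, a synthase known for making shorter chains, had 3.96 in adult and 3.09 at E12.5, both absent. The array thus called Has1 in adult cells, Has2 at a low signal at E12.5 and Has3 on neither array. Signals of different probe sets have no common scale, so the synthases are not ranked by level.

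Hyal2, anchored to the cell surface and known for cutting long chains into fragments, had 326 in adult and 643 at E12.5, both present. It was 1.97-fold lower in adult, just inside the 2-fold threshold, and 2.90-fold lower without scaling between arrays. Hyal1, the lysosomal enzyme that cuts those fragments further, has no probe set of its own in the platform annotation. The probe set that the deposited table names Hyal1 had 5.92 in adult and 10.5 at E12.5, both absent. The other 2 probe sets are shared with Naa80, the neighbouring N-acetyltransferase gene, and gave 236 and 124 in adult against 278 and 70.8 at E12.5, all present. They lay 1.18-fold lower and 1.74-fold higher in adult, so they differed in direction, and signals of Hyal1 and Naa80 cannot be told apart on them.

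Cd44, the main cell surface receptor of hyaluronan, had 793 in adult and 214 at E12.5 on its brightest probe set, both present. This was 3.71-fold higher in adult and placed Cd44 at rank 603 from the adult end of the 10154 genes detected on both arrays. Its other detected probe set gave 453 in adult and 129 at E12.5, a 3.52-fold difference. The log2 differences of these 2 probe sets lay 0.08 apart, against an SD of 0.62 between probe sets of 1 gene, taken over 4279 genes, which measures disagreement of probe sets and not error between arrays. The remaining 2 Cd44 probe sets were absent on both arrays, at 19.6 and 2.57 in adult and 7.02 and 1.93 at E12.5. Those 2 give no direction, and the direction of Cd44 rests on the detected pair. Leukocytes and macrophages also carry Cd44, and 14 of the 18 listed markers of these cells were at least 2-fold higher in adult, with a summed signal of 28319.8 in adult against 939.5 at E12.5. Of these markers 14 had a present call in adult and 7 at E12.5. Ptprc (CD45), the pan-leukocyte phosphatase, had 322 in adult and 52.9 at E12.5. The part of these cells in the Cd44 difference was not tested.

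Tnfaip6 (TSG-6) transfers heavy chains of inter-alpha-inhibitor onto hyaluronan and so cross-links the polymer. It had 5.16 in adult with an absent call, against 97.9 at E12.5 with a present call. Since the adult signal lay below the lowest signal of any present probe set on that array (5.84), the fold was taken against that lowest signal, which gave at least 16.8-fold higher at E12.5. With 16 added to each signal it was 5.22-fold, and with the array median as the limit of detection at least 2.23-fold. As a lower bound, the value sets no order between Tnfaip6 and Has2, which was absent in adult too.

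Vcan encodes versican, a large chondroitin sulfate proteoglycan that binds hyaluronan and fills embryonic matrix. Its brightest probe set had 221 in adult and 617 at E12.5, both present, which is 2.80-fold lower in adult. That put it at rank 1442 from the E12.5 end of the genes detected on both arrays. Another probe set had 23.0 in adult with an absent call, against 134 at E12.5 with a present call, at least 5.82-fold higher at E12.5. A further present probe set went the other way, with 37.3 in adult and 11.1 at E12.5, which is 3.37-fold higher in adult at low signals on both arrays. With the detected probe sets averaged, Vcan was 1.69-fold lower in adult, inside the 2-fold threshold. The other 5 of its 8 probe sets were absent on both arrays, with signals up to 25.9 in adult and 52.0 at E12.5. The direction given for Vcan is therefore that of its brighter probe sets. Which transcript forms the probe sets measure is not given in the sources used here.

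Prg4 encodes lubricin, the mucin-like glycoprotein that keeps cartilage surfaces from sticking. It had 500.3 in adult with a present call, against 17.8 at E12.5 with an absent call, at least 28.2-fold higher in adult. Without scaling the bound was 19.2-fold, and as a bound it sets no order between Prg4 and Has1. With the array median as the limit of detection the bound was 11.4-fold, and with 16 added to each signal 15.3-fold. Prg4 and Has1, both absent at E12.5, belong to the 9.84% of detected genes whose brightest detected probe set had a present call in adult alone. Has2 and Tnfaip6 belong to the 10.8% where that probe set had one at E12.5 alone. The scatter of all detected genes places the members among them.

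**Figure D2:**
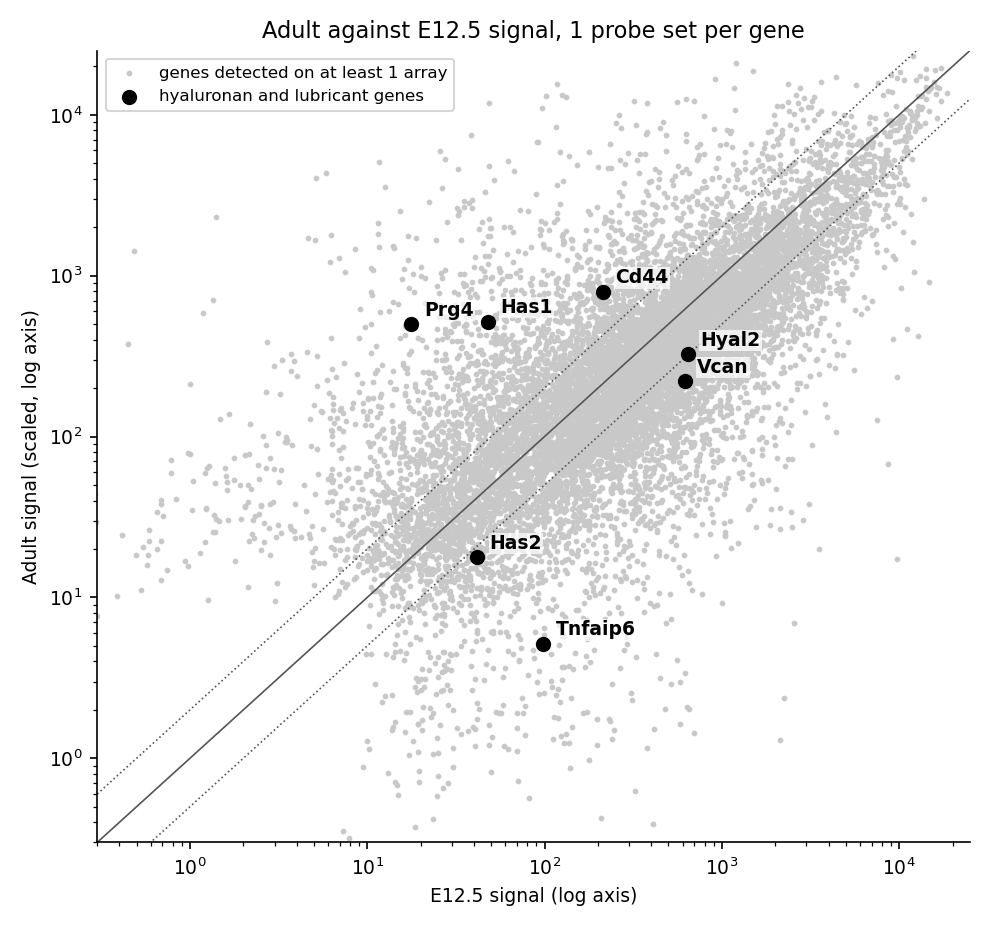
Adult signal (scaled, y axis) against E12.5 signal (x axis), both log axes in linear intensity units, for 12801 genes detected on at least 1 array (grey) and the 7 detected members (black). The solid line marks equal signals and the dotted lines 2-fold; Prg4, Has1 and Cd44 lie above the upper dotted line, Tnfaip6, Vcan and Has2 below the lower one, and Hyal2 just inside it.

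No member turned direction under the 10 alternatives tried, of which Has2 could be read in 9, since with the array median as the limit it was not detected. Over them the log2 difference, adult minus E12.5, ran between 3.51 and 5.19 for Prg4, 2.88 and 3.81 for Has1, and 1.34 and 2.27 for Cd44. Towards E12.5 it ran between -4.62 and -1.15 for Tnfaip6, -2.04 and -0.76 for Vcan, -1.79 and -0.77 for Has2, and -1.54 and -0.61 for Hyal2. Has1, Prg4, Cd44 and Tnfaip6 stayed past 2-fold in each, whereas Vcan, Has2 and Hyal2 crossed the threshold in at least 1.

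**Figure D3:**
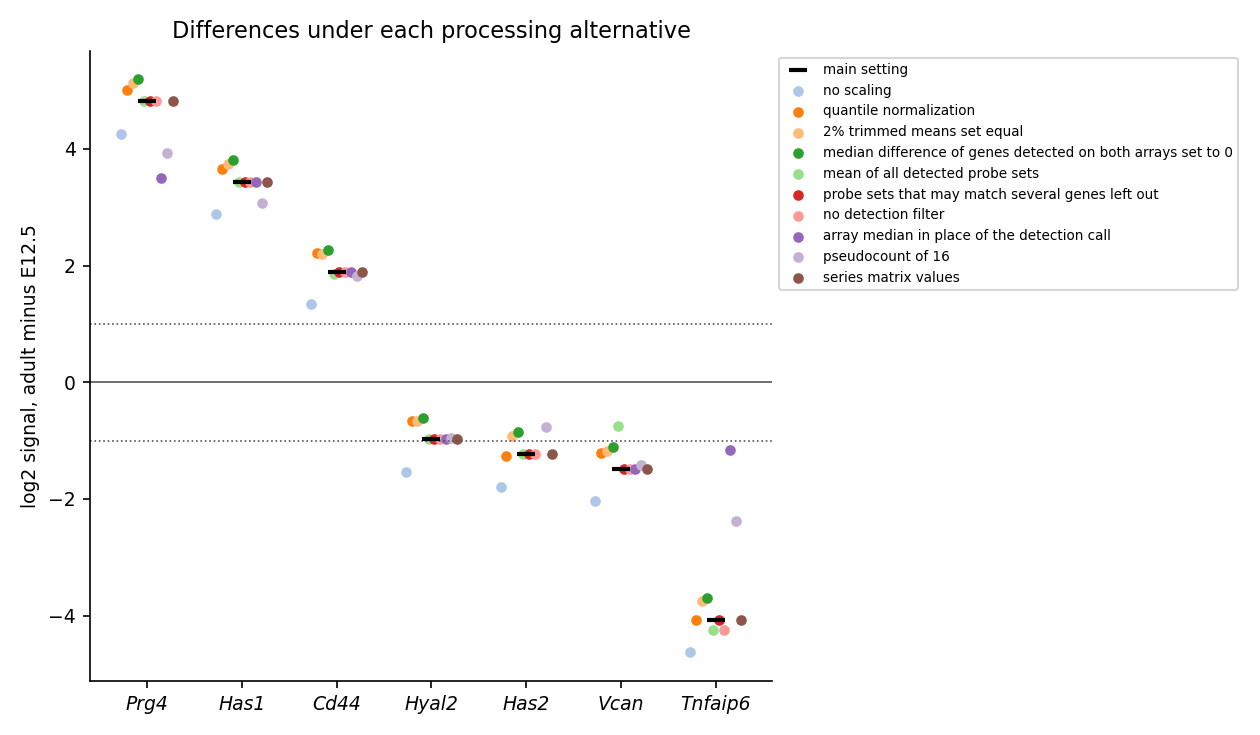
log2 signal in adult minus E12.5 for the 7 detected members (x axis), with the main setting as a black bar and each processing alternative as a coloured point; dotted lines mark 2-fold. Every point keeps the side of 0 of its main value, and Vcan, Has2 and Hyal2 cross the 2-fold line.

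Genes around the members were taken from lists of hyaluronan metabolism and surface coating. For the list counts below, the background over all detected genes was 16.9% towards adult and 29.1% towards E12.5. Of 14 listed enzymes that make the UDP-sugar precursors, 12 had a probe set of their own, and all 12 were present on both arrays. Past 2-fold were 2 towards adult and 5 towards E12.5, and their median difference was -0.73. This balance turned with the scaling, to 3 towards adult and 1 towards E12.5 once detected genes were centred. With probe sets averaged 2 passed towards adult and 4 towards E12.5, and the median was -0.34. Both forms of the rate-limiting enzyme of hexosamine synthesis stood apart: Gfpt2 had 787 in adult and 239 at E12.5 (3.30-fold higher in adult), and Gfpt1 had 985 in adult and 2499 at E12.5 (2.54-fold lower in adult). Uap1l1, a relative of the pyrophosphorylase that makes UDP-N-acetylglucosamine, had 981 in adult and 250.04 at E12.5 (3.92-fold higher in adult). The hexokinase Hk2 had 239 in adult and 1065 at E12.5 (4.46-fold lower in adult).

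Of the 9 other listed genes of hyaluronan breakdown 4 were detected, none past 2-fold towards adult and 2 towards E12.5 (median -0.96, or -0.40 with probe sets averaged). The count towards E12.5 was 1 after quantile normalization, with trimmed means equal and with detected genes centred, and 3 without scaling. Cemip, a secreted protein needed for hyaluronan breakdown in human skin fibroblasts, had 15.7 in adult with an absent call, against 299 at E12.5, at least 19.1-fold higher at E12.5. Its relative Cemip2, a cell surface protein, had 312 in adult and 668 at E12.5 (2.14-fold lower in adult), while 1 of its 3 detected probe sets was higher in adult, by 3.15 on the log2 scale. The lysosomal enzymes Gusb (324 in adult, 569 at E12.5) and Hexa (3009 in adult, 2559 at E12.5) lay within 2-fold.

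Of 7 detected other hyaluronan receptors (8 listed), 4 passed 2-fold towards adult and 1 towards E12.5, with a median of 2.27. The median was 1.09 with the array median as the limit of detection. With probe sets of possible cross-matches left out it was 1.41, with 3 of 6 past 2-fold towards adult. The scavenger receptors of sinusoidal endothelium Stab2, which clears hyaluronan from blood, and Stab1 had 2485 and 1102 in adult, against 356 and 181 at E12.5 (6.99-fold and 6.07-fold higher in adult). Tlr4, a receptor of the innate immune system, had 114 in adult, against 21.5 at E12.5 with an absent call (at least 5.30-fold). Hmmr (RHAMM), also a spindle protein of dividing cells, had 72.6 in adult and 999.8 at E12.5, 13.8-fold lower in adult. Of 12 listed markers of sinusoidal endothelium 11 were detected, and 8 passed 2-fold towards adult. The summed signal was 18038 in adult and 2338 at E12.5. Pecam1 had no present call on either array. Cdh5 had 109 in adult and 128 at E12.5, and Tek 137 in adult and 257 at E12.5, both within 2-fold. Stab1 and Stab2 are among the genes that stand on both lists and so enter both counts. The part of such cells in the Stab1 and Stab2 values was not tested.

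Of 13 other listed matrix binders of hyaluronan, 12 had a probe set of their own and 5 were detected. Over all genes 12801 of 18193 were detected. Of the 5 binders none passed 2-fold towards adult and 3 passed it towards E12.5 (median -1.41). With the array median as the limit of detection 1 passed towards E12.5, and the median was -0.47. The link protein Hapln1, which ties versican to hyaluronan, had 7.18 in adult with an absent call, against 41.0 at E12.5 (at least 5.71-fold). Hapln3 had 48.2 in adult, absent, and 81.3 at E12.5. The pentraxin Ptx3, a partner of Tnfaip6, had 19.4 in adult and 61.0 at E12.5 (3.15-fold lower in adult), and C1qbp, a mainly mitochondrial protein that also binds hyaluronan, had 4010 in adult and 10626 at E12.5 (2.65-fold lower in adult).

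Genes of the inter-alpha-inhibitor heavy chain family, with bikunin (Ambp), were detected in 5 of 6 cases, with 1 past 2-fold towards adult and 3 towards E12.5. They were listed by family, and not all of them are taken to be moved onto hyaluronan by Tnfaip6. None passed towards adult without scaling, with the array median as the limit or with probe sets of possible cross-matches left out. Itih3 had 8.71 in adult with an absent call, against 261 at E12.5 (at least 30.0-fold), and Itih2 70.9 in adult, absent, against 747 at E12.5 (at least 10.5-fold). Ambp had 481 in adult and 2050.1 at E12.5, 4.26-fold lower in adult, and Itih4 84.2 in adult, against 31.1 at E12.5 with an absent call (at least 2.71-fold higher in adult). Hepatoblasts and hepatocytes are the known source of these plasma proteins. Of 10 detected markers of those cells 9 passed 2-fold towards E12.5, whereas Cps1 passed it towards adult, with a present call there alone. The summed signal was 2765 in adult and 29320.4 at E12.5. Afp had no present call in adult, but Alb was present on both arrays, at 1584 in adult and 7365 at E12.5. The part of those cells in the values of the heavy chains and Ambp was not tested.

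Of 12 detected enzymes and linkers that act on versican and Cd44 (14 listed), 1 passed 2-fold towards adult, 4 towards E12.5 and 7 neither. The backgrounds over all detected genes were 16.9% towards adult and 29.1% towards E12.5. Without scaling the counts were 1 and 6, and with detected genes centred 2 and 2. Among the versican-cutting proteases, Adamts5 had 657 in adult and 122 at E12.5 (5.39-fold higher in adult), and Adamts20 had 22.2 in adult and 119.6 at E12.5 (5.40-fold lower in adult). Adamts9 had 446 in adult and 1241 at E12.5 (2.78-fold lower in adult), but its other 2 detected probe sets were higher in adult, by up to 1.31 on the log2 scale. Radixin (Rdx), which links Cd44 to actin, had 1245 in adult and 3152 at E12.5 (2.53-fold lower in adult).

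Of 7 detected other genes of the surface coat (11 listed), 4 passed 2-fold towards adult (3 without scaling) and none towards E12.5, with a median of 1.55. Galectin-3 (Lgals3), a lectin that binds mucins, had 5582 in adult and 137 at E12.5, 40.9-fold higher in adult. It is also a macrophage gene, and the macrophage markers given above were higher in adult too. The membrane mucin Muc16 had 3952 in adult and 522 at E12.5 (7.58-fold), and the lipid transporter Abca3 had 1210.4 in adult and 412 at E12.5 (2.93-fold). Surfactant protein D (Sftpd) had 35.9 in adult, against 7.50 at E12.5 with an absent call (at least 4.79-fold). Both Sftpd signals lay below the median of their array. The plot of the surrounding genes gives all detected members.

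**Figure D4:**
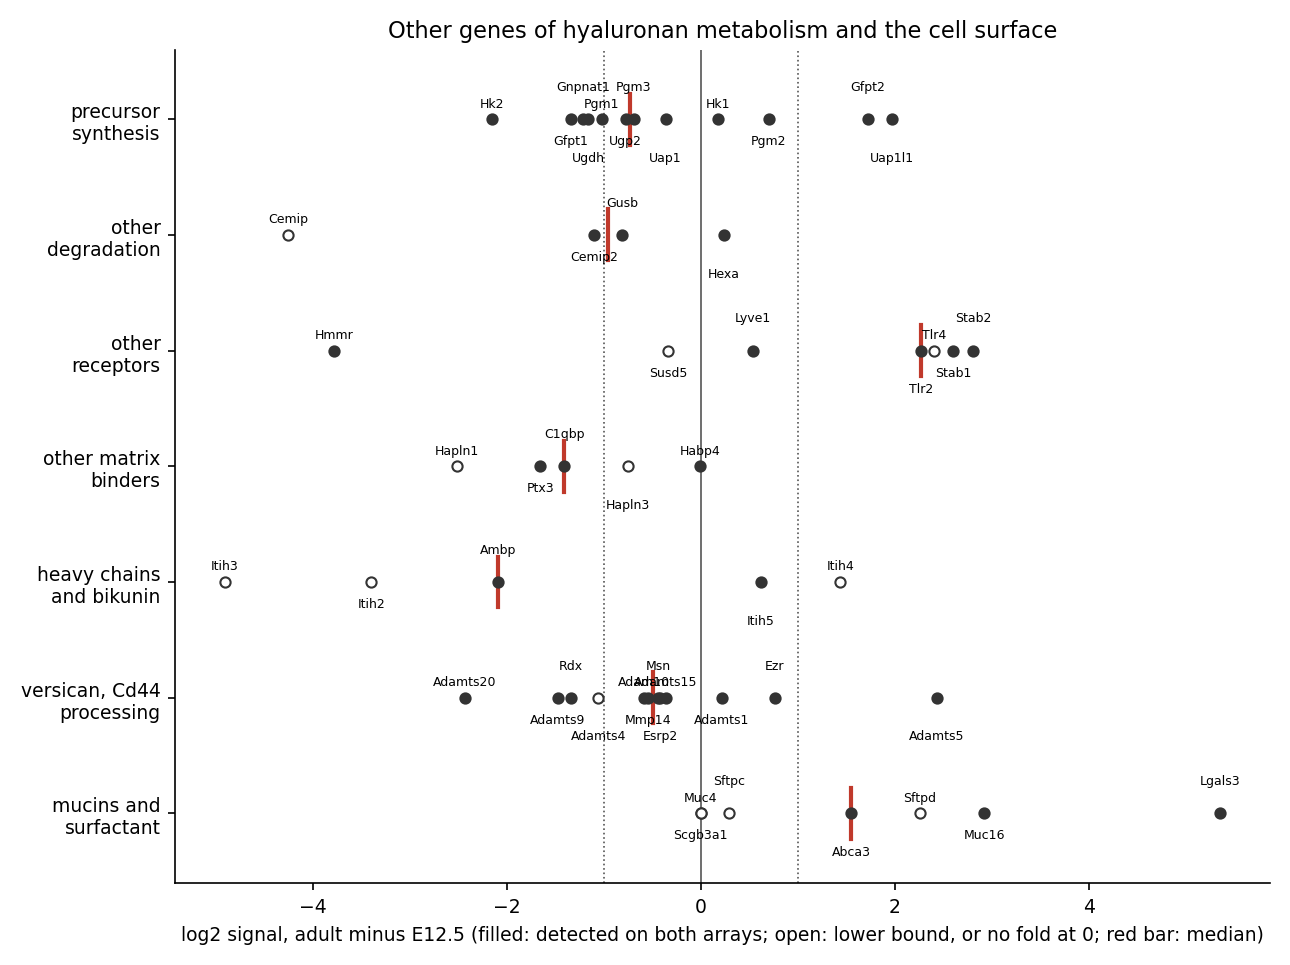
log2 signal in adult minus E12.5 (x axis) for the detected genes of 7 lists (rows); filled points were detected on both arrays, open points are lower bounds (or no fold, at 0), red bars are list medians and dotted lines mark 2-fold. Points in the rows of other receptors and of mucins and surfactant lie mostly to the right, those of matrix binders and heavy chains mostly to the left.

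The arrays as a whole set the frame for these values. A present call was given to 52.2% of 45037 probe sets in adult and 51.9% at E12.5, and their number, 1 per stage, limits the precision. Msln and Podxl, the genes of the sorting antigens, had 11835 and 1807 in adult against 48.5 and 6069 at E12.5, each higher where its product was the target of the sort. Of 21 listed mesothelial markers, Msln and Podxl among them, all were detected on at least 1 array, 20 in adult and 20 at E12.5. Past 2-fold were 8 towards adult and 3 towards E12.5, against backgrounds of 16.9% and 29.1%. The median difference was 0.67 (0.12 without scaling), and the summed signals were 119790.1 in adult and 49820.4 at E12.5. Erythroid markers had a present call in 1 of 12 listed genes in adult and 8 at E12.5, with summed signals of 256 in adult and 3564 at E12.5. Stellate cell and fibroblast markers divided, with 3 of 14 past 2-fold towards adult, Dcn among them (18789 in adult, 1493 at E12.5), and 8 towards E12.5, Col1a1 among them (501 in adult, 4503 at E12.5). With detected genes centred or trimmed means equal, 4 passed 2-fold towards adult and 5 towards E12.5. Fibroblasts and stellate cells also make versican and Has2, and the part of such cells in those values was not tested. Gapdh control probe sets at the 3′ end were 6.81 times as bright as those at the 5′ end in adult and 2.07 times at E12.5, and for beta-actin the ratios were 3.47 in adult and 1.93 at E12.5. The part of these ratios in the values above was not tested.

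**Figure D5:**
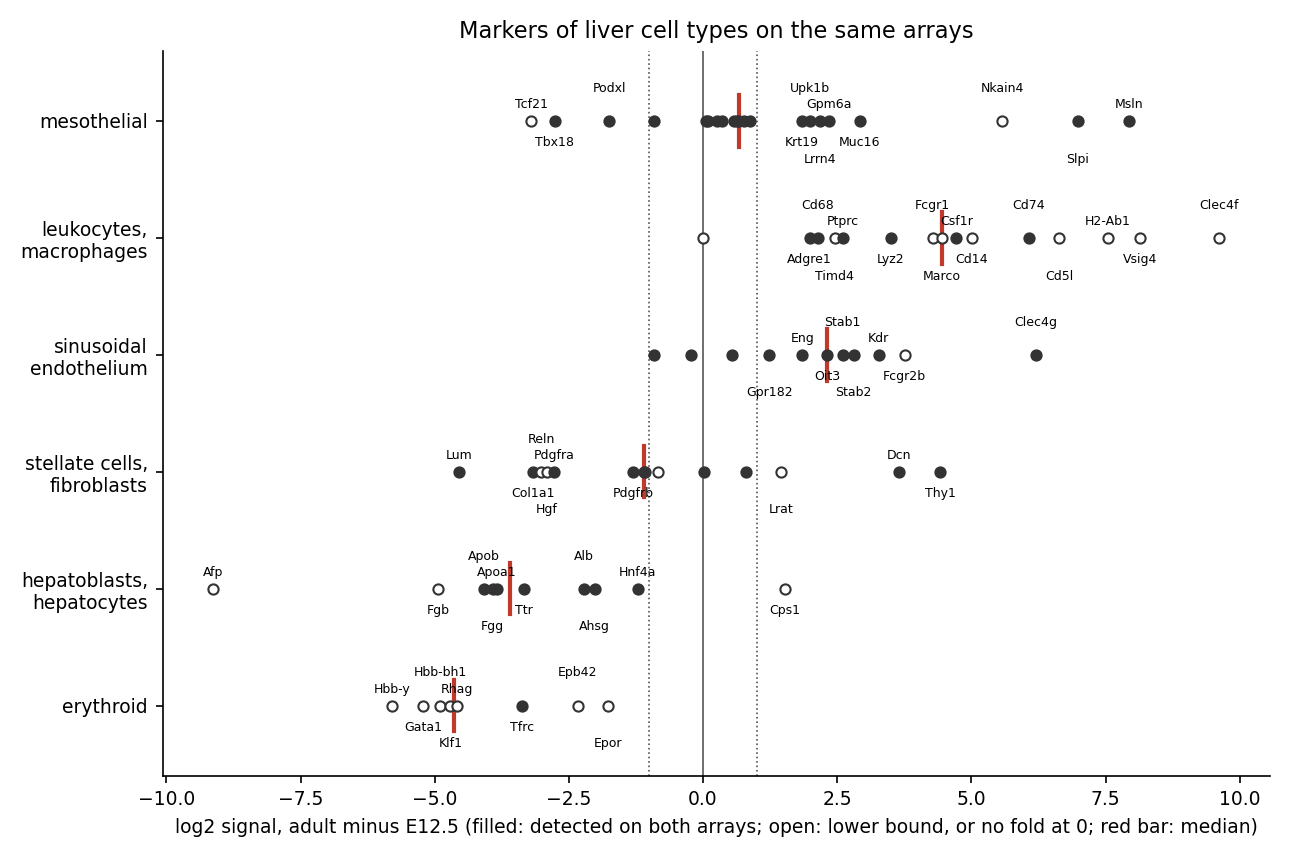
log2 signal in adult minus E12.5 (x axis) for detected markers of 6 cell types (rows), with filled points for genes detected on both arrays, open points for lower bounds (or no fold, at 0), red bars for medians and dotted lines at 2-fold; genes near 0 are not named. Leukocyte and endothelial markers lie mostly towards adult, hepatoblast and erythroid markers mostly towards E12.5. Tek and Cdh5 (endothelial) lie towards E12.5, and Cps1 (hepatoblasts and hepatocytes) lies towards adult.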

How the data were processed

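Per the file headers, the values the authors deposited for both arrays are a linear intensity and a detection call for 45101 probe sets, of which 64 controls were set aside. Per the labels' protocols, total RNA was amplified in successive cycles before hybridisation. The submitters' processing notes name Affymetrix Expression Console, with no algorithm given. The authors also deposited a ratio of adult to E12.5, which equals the raw ratio divided by 0.680, the ratio of the array medians, apart from 79 values at its floor. The same constant was used here: adult signals were divided by it (0.56 on the log2 scale), and adult signals are scaled unless called unscaled.

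Gene symbols came from the platform annotation, brought up to date by Entrez number in RefSeq (GRCm38.p6). Of 45037 probe sets, 34945 had 1 symbol, 932 several and 9160 none, and those with several named no gene. Each gene was read from its brightest probe set (mean log2 signal) with a present call on at least 1 array. Whether a gene counts as detected on 1 array or both is the call of that probe set. A gene not present on 1 array has a lower bound, in which the dim signal is replaced by the lowest present signal of its array where it lies under that (5.84 in adult, 4.57 at E12.5). No bound under 1 was read as a fold. Differences are log2 adult minus log2 E12.5. With 1 array per group no test across samples was made. Members and lists were chosen with earlier results of these data known. The named genes were all members, up to 4 detected genes with the largest difference in each other list, up to 3 markers per cell type, and the 3 genes nearest to the most divergent member in each direction among those detected on both arrays. The fold counts were checked on a copy of the E12.5 signals with known folds put in and slight noise added. That copy had the same calls on both arrays, so the lower bounds of genes detected on 1 array alone were not checked. Calculations used Python 3.11.15, numpy 2.4.6 and pandas 2.3.3.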

Additional observations from a re-analysis of the deposited data

How the results depend on the processing

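The count of members at least 2-fold higher in adult was 3 under all 10 alternatives, and that at E12.5 ran between 2 and 4. The median difference of the members, -0.98, was -0.31 without a detection filter, which brought in Has3, and 0.46 with the array median in place of the detection call, which left out Has2. Of the values of single members, 64 moved by less than the SD of 0.62 between probe sets of a gene. The other 5 were Prg4 (3.51 and 3.93) and Tnfaip6 (-1.15 and -2.38) with the array median as the limit and with 16 added, and Vcan (-0.76) with probe sets averaged. Much of the count of 64 was fixed in advance. Leaving out scaling, equal trimmed means and centring each shift every member by the same amount, below that SD. A second deposited copy of the signals holds the same values. Leaving out probe sets of possible cross-matches removed none that stands for a member. Among all detected genes past 2-fold, 63.2% lay towards E12.5, and 80.2% without scaling, 49.0% with trimmed means equal and 45.8% with detected genes centred. These scalings moved the median of all genes by -0.56, 0.31 and 0.37, and quantile normalization by 0.24. No paired analysis was possible because each group has 1 array, and for the same reason no array could be left out. Low signals limit Has2, Has3, the dimmer Vcan probe sets and the probe set that only the deposited table names Hyal1. The other Hyal1 probe sets are limited by being shared with Naa80 and by their opposite directions.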

Other observations

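Genes known to regulate hyaluronan synthases, as growth factors, cytokines and their receptors, went both ways. Of 14 detected (17 listed) 4 were at least 2-fold higher in adult and 4 at E12.5, against backgrounds of 16.9% and 29.1%. Without scaling the counts were 2 and 7 and the median -0.91. The median with scaling, -0.36, turned to 0.02 on centring and to 0.01 under quantile normalization. Cebpb, a transcription factor of the acute phase response, had 825 in adult and 257 at E12.5, 3.21-fold higher in adult. Il6 had 24.4 in adult, against 0.42 at E12.5 with an absent call, at least 5.35-fold higher in adult. Both Il6 signals lay below the median of their array. Pdgfra, the receptor of platelet-derived growth factor A, had 125 in adult and 854 at E12.5, 6.81-fold lower in adult. Tgfb1 had 47.1 in adult with an absent call, against 168 at E12.5, at least 3.57-fold higher at E12.5. The other detected Tgfb1 probe set had a log2 difference of only -0.18.

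By distance between log2 signals on the 2 arrays, the genes nearest to Cd44 were Emilin2 (distance 0.10), Slc43a2 (0.14) and Rnf13 (0.15), and those nearest to Vcan were Gatad2b (0.02), Rexo1 (0.04) and Pacs1 (0.05). With 2 arrays such a match sets signals of different probe sets side by side and says nothing of shared levels.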
